A study of Mus musculus with 6 samples.

Results

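The CD300 receptor family was examined in cultured mouse bone marrow cells with a knockout of the DNA methyltransferase gene Dnmt3a and in wild-type (WT) cells. Its members were the 5 genes Cd300a, Cd300lf, Cd300lb, Cd300ld and Cd300lh, found by symbol among the 15139 rows of an expression table. Messenger RNA was sequenced from marrow cells kept in culture to week 1 in RPMI medium with 10% fetal bovine serum. The cytokines were IL3 (interleukin 3) at 10 ng/ml and SCF, the KIT ligand stem cell factor, at 50 ng/ml. The Dnmt3a knockout (KO) group, labelled MxCre+v: Dnmt3a-/-, was measured in 2 libraries, those of replicates 2 and 3. KO replicate 1 was not analysed here. The WT group, labelled MxCre+v: Dnmt3a+/+, was measured in 3 libraries. Both genotypes thus carry the Mx-Cre label, a recombinase driven by an interferon-inducible promoter that is active in blood cells and in other tissues. The same samples are called knockdown in another label, and the groups follow the titles. The labels state neither the age of the mice, nor how many were pooled, nor whether replicates came from separate animals, so the p-values measure only the spread between these libraries, which may be technical.

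CD300 receptors are membrane proteins with a single immunoglobulin-like domain, found mainly on myeloid cells and, in part, on mast cells, and several of them bind lipids such as phosphatidylserine on dying cells or ceramide. They work as pairs of opposed function. Inhibitory members such as CD300a and CD300lf carry tyrosine motifs in the cytoplasmic tail that recruit the phosphatase SHP-1, encoded by Ptpn6. Activating members such as CD300lb and CD300ld have a short tail and signal through adaptor chains with tyrosine motifs, among them DAP12 (gene Tyrobp), DAP10 (Hcst) and the Fc receptor gamma chain (Fcer1g). The series asks about the effect of Dnmt3a loss on blood formation, and its title names myeloid cell skewing and the PI3 kinase pathway.

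The libraries were compared in FPKM, a unit of expression scaled for gene length and sequencing depth, so levels can be set side by side between genes. FPKM summed to 560387 to 604368 per library, and the sequencing depth behind them is unknown. Dnmt3a itself was at 2.58 and 3.42 FPKM in the KO libraries, against 6.68 to 9.99 FPKM in the WT libraries (log2 change -1.25 ± 0.17 SE; limma adjusted p = 0.00279). The sources used here do not state which exons were deleted, and a level over the whole gene also counts reads from the exons that remain. The libraries also differed in sex. Both KO libraries and WT replicate 1 held 12.98 to 14.8 FPKM of the Y-linked Ddx3y and at most 0.02 FPKM of Xist, the RNA of the inactive X, whereas Xist was at 14.4 and 15.3 FPKM in WT replicates 2 and 3. Sex is thus carried unequally by the genotypes, and the test of each named gene was also computed with sex as a covariate, which sets the KO libraries against WT replicate 1.

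The family lies in a row on chromosome 11. In GRCm38.p6, the build also called mm10 that the submitters' processing notes name, the members span 246.2 kb from 114889152 to 115135372, and 11 CD300 genes are annotated there. Cd300a (gene 217303, 114889152 to 114901946) is on the plus strand. The others are on the minus strand, in the order Cd300lb (gene 217304, 114922779 to 114934371), Cd300ld (gene 217305, 114982443 to 114989886), Cd300lh (gene 382551, 115042104 to 115048419) and Cd300lf (gene 246746, 115116214 to 115135372). RefSeq now calls gene 382551 Cd300ld3. Between Cd300ld and Cd300lh lies Cd300c2 (gene 140497, 114996721 to 115004261), listed in the table under its older symbol AF251705. It encodes another activating receptor, which pairs with DAP12. No exonic base of a CD300 gene at this locus was shared with another annotated gene (0 pairs over 11 CD300 genes), although Cd300lf lies inside an intron of Rab37, which runs on the opposite strand.

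The promoters of 4 of these genes are shown because Cd300ld and Cd300c2 were much lower in the KO libraries while Cd300lb and Cd300lf did not pass the test. Each runs 5′ to 3′ on the minus strand, from 250 bases before an annotated start to 50 bases after it, and was taken from RefSeq (GRCm38.p6). The Cd300ld and Cd300lb windows lie at the 5′ end of the gene spans given above. Those of Cd300c2 and Cd300lf lie wholly inside their spans, at a start further downstream, so the 4 windows are not placed alike. Capitals mark the core of the binding motif of the myeloid factor PU.1, GAGGAA, or its reverse complement TTCCTC.
Cd300ld, chr11:114989837-114990136: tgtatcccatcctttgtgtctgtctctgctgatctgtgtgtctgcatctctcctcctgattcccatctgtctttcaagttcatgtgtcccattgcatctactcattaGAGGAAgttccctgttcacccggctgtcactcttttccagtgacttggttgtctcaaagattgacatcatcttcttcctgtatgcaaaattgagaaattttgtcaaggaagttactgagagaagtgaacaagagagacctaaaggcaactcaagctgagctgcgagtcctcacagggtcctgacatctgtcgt
Cd300c2, chr11:115001831-115002130: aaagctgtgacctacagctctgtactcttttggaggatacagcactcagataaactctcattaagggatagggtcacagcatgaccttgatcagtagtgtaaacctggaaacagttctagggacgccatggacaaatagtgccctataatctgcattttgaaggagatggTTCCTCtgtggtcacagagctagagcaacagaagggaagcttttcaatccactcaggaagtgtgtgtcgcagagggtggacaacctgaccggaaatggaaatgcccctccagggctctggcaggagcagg
Cd300lb, chr11:114934322-114934621: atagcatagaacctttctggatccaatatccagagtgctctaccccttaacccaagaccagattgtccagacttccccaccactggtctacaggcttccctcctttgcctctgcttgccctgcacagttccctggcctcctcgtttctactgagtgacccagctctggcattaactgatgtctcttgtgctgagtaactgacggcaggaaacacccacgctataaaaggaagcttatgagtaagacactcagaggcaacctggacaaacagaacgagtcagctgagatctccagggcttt
Cd300lf, chr11:115133943-115134242: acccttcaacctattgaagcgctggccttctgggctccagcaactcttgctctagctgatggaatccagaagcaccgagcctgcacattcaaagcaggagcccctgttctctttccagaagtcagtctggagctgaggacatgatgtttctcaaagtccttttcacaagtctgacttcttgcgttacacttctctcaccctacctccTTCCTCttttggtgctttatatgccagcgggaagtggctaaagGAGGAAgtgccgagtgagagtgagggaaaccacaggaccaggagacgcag
The GAGGAA core was present once in the Cd300ld window, at base 108 counted from 1 at the 5′ end, once in the Cd300c2 window, at base 171, and 2 times in the Cd300lf window. It was absent from the Cd300lb window, and 28.3% of the 32851 promoter windows taken from the RefSeq annotation hold it. Also searched on both strands were the C/EBP motif TTNNGNAA (in 40.7% of all windows), the GATA motif AGATAA (11.2%) and the RUNX motif TGTGGT (16.8%). Cd300ld had 1 C/EBP match, Cd300c2 had 1 GATA and 1 RUNX match, Cd300lf had 3 C/EBP matches and 1 RUNX match, and Cd300lb had none of the 4 motifs. In these 4 windows no match overlapped one of another motif. The dinucleotide CG, the site that DNA methyltransferases act on, occurred 3 times in the Cd300ld and Cd300c2 windows, 4 times in the Cd300lb window and 6 times in the Cd300lf window, against a median of 7 over all windows. The Cd300ld window was identical to that of Cd300c2 at 45.9% of aligned positions, to that of Cd300lf at 46.2% and to that of Cd300lb at 49.4%. It was closer to the window of Cd300lh, not shown, at 65.3%. A match or its absence describes only these letters.

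Among the members, the activating receptor gene Cd300ld was about 3-fold lower in the KO libraries, the inhibitory Cd300a was slightly lower, and Cd300lf, Cd300lb and Cd300lh did not pass the test. All 5 members passed the filter on low values, at least 1 FPKM in at least 2 libraries. Changes were tested with limma on log2(FPKM + 1), adjusted by Benjamini-Hochberg over all 11365 genes tested, with a threshold of 0.05. By that test 2 of 5 members were lower and 0 were higher in the KO libraries. Across all genes tested, 13% were lower, 9.08% were higher and 22.1% were called in either direction. Higher genes made up 41.2% of all calls as deposited and 52.5% after upper-quartile scaling. Both KO libraries lay below every WT library for 3 of 5 members, against 30.8% of all genes tested, and lay above every WT library for none of them, against 20.4%. The groups did not overlap in either direction for 51.1% of genes. Fold changes on the log2(FPKM + 1) scale understate the change of low genes.

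**Figure D1:**
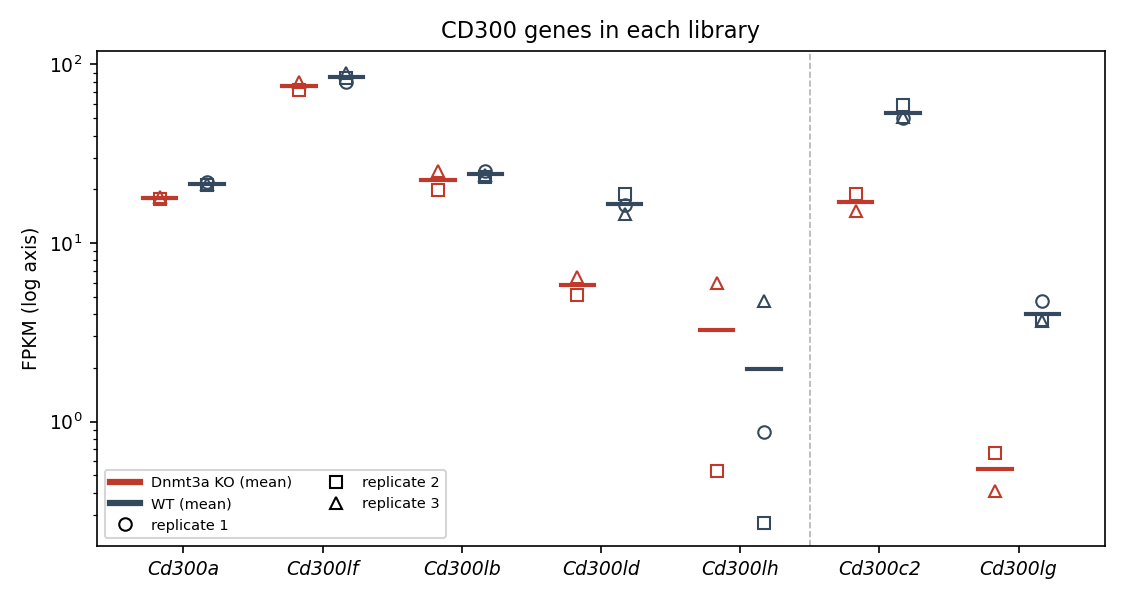
FPKM (log axis) of the 5 CD300 members, left of the dashed line, and of Cd300c2 and Cd300lg, right of it. Points are libraries, with the 2 Dnmt3a KO libraries in red and the 3 WT libraries in dark blue, the symbol shape gives the replicate number and short lines are group means. The KO points of Cd300ld lie at 5.11 and 6.47 FPKM, below all WT points, while Cd300lh is spread over both groups.

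Cd300lf was the most abundant member in every library. Its product is an inhibitory receptor that binds ceramide and phosphatidylserine and serves murine norovirus as its entry receptor. It stood at 71.5 and 79.3 FPKM in the KO libraries, against 80.3, 84.1 and 89.3 FPKM in the WT libraries. The groups did not overlap, but KO replicate 3 and WT replicate 1 were only about 1 FPKM apart. The mean was 75.4 ± 5.51 FPKM (SD, n = 2) in KO cells and 84.6 ± 4.54 FPKM (SD, n = 3) in WT cells, which is -0.16 ± 0.08 (SE; limma adjusted p = 0.206) on the log2 scale. The 95% interval of the change ran from -0.36 to 0.03.

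Cd300a encodes an inhibitory receptor for phosphatidylserine that restrains mast cell degranulation. Its level was 17.6 and 18.0 FPKM in the KO libraries, against 21.9, 21.2 and 21.5 FPKM in the WT libraries. Both groups were tight and did not overlap: the log2 range over the WT libraries was 0.04, and 94.7% of tested genes had a wider one. The mean was 17.8 ± 0.30 FPKM (SD, n = 2) in KO cells and 21.5 ± 0.33 FPKM (SD, n = 3) in WT cells, so the KO level was 0.829 times the WT level. Its log2 change of -0.26 ± 0.07 (SE) passed the test with a limma adjusted p of 0.0407 and a 95% interval from -0.43 to -0.09. The call was lost in 10 of 12 alternatives, in each of which the change stayed negative, between -0.28 and -0.20. These were the fits that leave out any 1 of the 5 libraries (adjusted p = 0.0645 to 0.126), sex as a covariate (0.171), the replicate block (0.158), median-of-ratios and upper-quartile scaling (0.0719 and 0.0940) and the fit with no mean-variance trend (0.0625).

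Cd300lb encodes an activating receptor that signals through DAP12 and DAP10 and has the phosphatidylserine receptor TIM1 among its ligands. It measured 19.9 and 25.4 FPKM in the KO libraries, against 25.5, 23.5 and 24.1 FPKM in the WT libraries. The groups overlapped, since KO replicate 3 was as high as the highest WT library and KO replicate 2 was below all others. The mean was 22.6 ± 3.87 FPKM (SD, n = 2) in KO cells and 24.4 ± 0.99 FPKM (SD, n = 3) in WT cells, which is -0.11 ± 0.11 (SE; limma adjusted p = 0.521; 95% interval -0.37 to 0.15) on the log2 scale. The direction rested on KO replicate 2, without which the change was 0.057 (adjusted p = 0.641).

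Cd300ld encodes an activating receptor that associates with the Fc receptor gamma chain and can also bind murine norovirus. It was at 5.11 and 6.47 FPKM in the KO libraries, against 16.4, 18.9 and 14.5 FPKM in the WT libraries. The highest KO library was thus far below the lowest WT library. The mean was 5.79 ± 0.96 FPKM (SD, n = 2) in KO cells and 16.6 ± 2.24 FPKM (SD, n = 3) in WT cells, so that the KO level was 0.349 times the WT level. The log2 change was -1.37 ± 0.14 (SE; limma adjusted p = 0.000764), with a 95% interval from -1.69 to -1.05. Under the 12 alternatives it lay between -1.52 and -1.23, with adjusted p from 0.000786 to 0.00802, so that the call was kept in each.

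Cd300lh, a gene of the Cd300ld group, was low and differed more within each genotype than between them. It was at 0.53 and 5.98 FPKM in the KO libraries, against 0.87, 0.27 and 4.75 FPKM in the WT libraries. The replicate 3 libraries of both genotypes were high and the other 3 libraries were under 1 FPKM. The highest KO library held 11.3 times the lowest, and the highest WT library 17.6 times the lowest. Among all genes tested, 0.0616% had a wider log2 range over the KO libraries and 0.211% a wider one over the WT libraries. On the log2 scale the change was 0.45 ± 0.77 (SE; limma adjusted p = 0.724; 95% interval -1.36 to 2.26), and without WT replicate 2 its value was -0.005 (adjusted p = 0.998).

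Cd300lh is close in sequence to some of its neighbours, which may make its level uncertain. Of the 50-base words in its annotated GENCODE M21 transcript, 82.1% also occur in transcripts of Cd300ld5 and 75.8% in Cd300ld4. By contrast, such shared words made up 3.89% of Cd300ld, 1.90% of Cd300a, 1.91% of Cd300lf and 0% of Cd300lb. Cd300ld4, in the table under its older symbol Gm11710, was at 0.09 and 0 FPKM in the KO libraries and at 0.85, 0 and 0 FPKM in the WT libraries. The sum of Cd300lh and Cd300ld4 was 0.62 and 5.98 FPKM in the KO libraries and 1.72, 0.27 and 4.75 FPKM in the WT libraries. Since Cd300ld4 was at 0 FPKM in both replicate 3 libraries and at most 0.85 FPKM elsewhere, adding it could not remove the spread. Cd300ld5 has no row in the expression table and could not be added. Whether reads were divided between these copies was not tested.

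**Figure D2:**
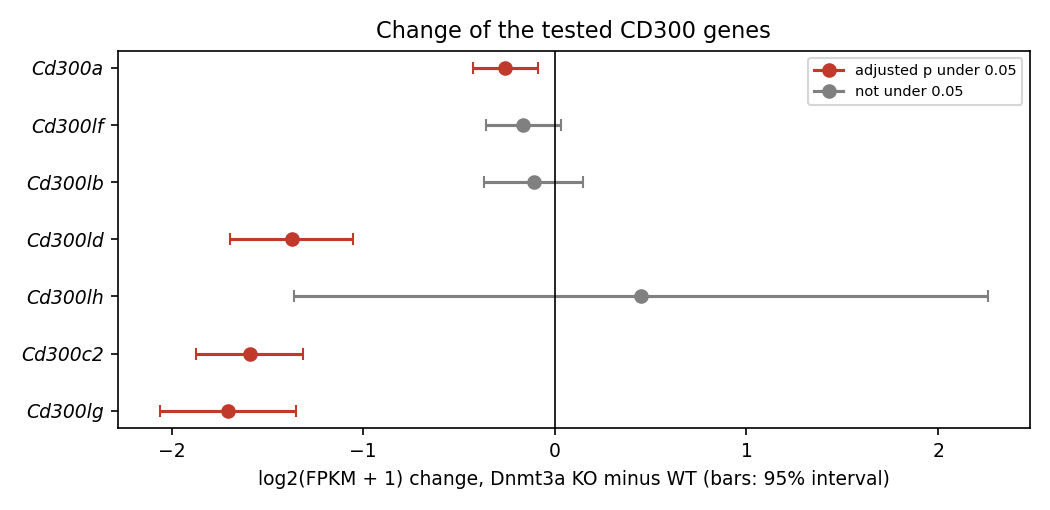
Change of the 5 members, of Cd300c2 and of Cd300lg between Dnmt3a KO and WT libraries, on the log2(FPKM + 1) scale (x axis; bars are 95% intervals from limma). Red points had an adjusted p under 0.05. Cd300ld, Cd300c2 and Cd300lg lie between -1.71 and -1.37, while the interval of Cd300lh runs from -1.36 to 2.26.

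Of 11 other genes of the family and of its relatives on a list, 7 had a row in the expression table and 2 passed the filter, Cd300c2 and Cd300lg. Cd300c2, which lies next to Cd300ld, was at 18.9 and 15.2 FPKM in the KO libraries, against 49.9, 59.5 and 50.7 FPKM in the WT libraries. Its groups were far apart, with means of 17.1 ± 2.64 FPKM (SD, n = 2) in KO cells and 53.4 ± 5.33 FPKM (SD, n = 3) in WT cells. Its log2 change was -1.59 ± 0.12 (SE; limma adjusted p = 0.000339), and it passed the test under each of the 12 alternatives (adjusted p from 0.000111 to 0.00359). The transcript of Cd300c2 shares 7.16% of its 50-base words with Cd300a and none with Cd300ld.

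Cd300lg, a member known from endothelium, lies apart from the others on the same chromosome (102041511 to 102055617). It was at 0.67 and 0.41 FPKM in the KO libraries, against 4.73, 3.72 and 3.64 FPKM in the WT libraries, which gave a change of -1.71 ± 0.15 (SE; limma adjusted p = 0.000542) on the log2 scale. It passed the filter only through the WT libraries, since both KO libraries were under 1 FPKM, and a gene admitted that way had to differ. The groups did not overlap, and the KO mean was 0.134 times the WT mean. With a pseudocount of 0.1 FPKM in place of 1, its log2 change was -2.71. The 5 listed genes that did not pass the filter were Cd300c (at most 0.40 FPKM in any library), Cd300e (at most 0.07), Cd300ld4 (at most 0.85) and the immunoglobulin receptor genes Pigr (at most 0.09) and Fcmr (at most 0.15).

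The make-up of CD300 message followed from these values. Summed over the 5 members, the level was 114.7 and 135.2 FPKM in the KO libraries, against 144.8, 148.0 and 154.1 FPKM in the WT libraries. This sum leaves out the activating Cd300c2, at 18.9 and 15.2 FPKM in the KO libraries and 49.9 to 59.5 FPKM in the WT libraries. The shares thus describe the 5 members alone, not all CD300 message. The inhibitory pair Cd300lf and Cd300a made up 77.7% and 72.0% of the sum in the KO libraries, against 70.5%, 71.1% and 71.9% in the WT libraries. For these 5 members the WT libraries were close together, and KO replicate 3 was within 1 percentage point of the highest of them. A sum that also held Cd300c2 would set the inhibitory shares of the KO libraries further above those of WT. This is because Cd300c2 was lower in the KO libraries. Of the sum of the 5 members, Cd300ld made up 4.46% and 4.79% in the KO libraries, against 11.3%, 12.8% and 9.40% in the WT libraries. Set against Cd300lb in the same library, the ratio of Cd300ld was 0.257 and 0.255 in KO cells and 0.643, 0.805 and 0.600 in WT cells. The ratio of Cd300c2 to Cd300ld was 3.71 and 2.35 in KO cells and 3.05, 3.14 and 3.50 in WT cells, so that these ranges overlapped.

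**Figure D3:**
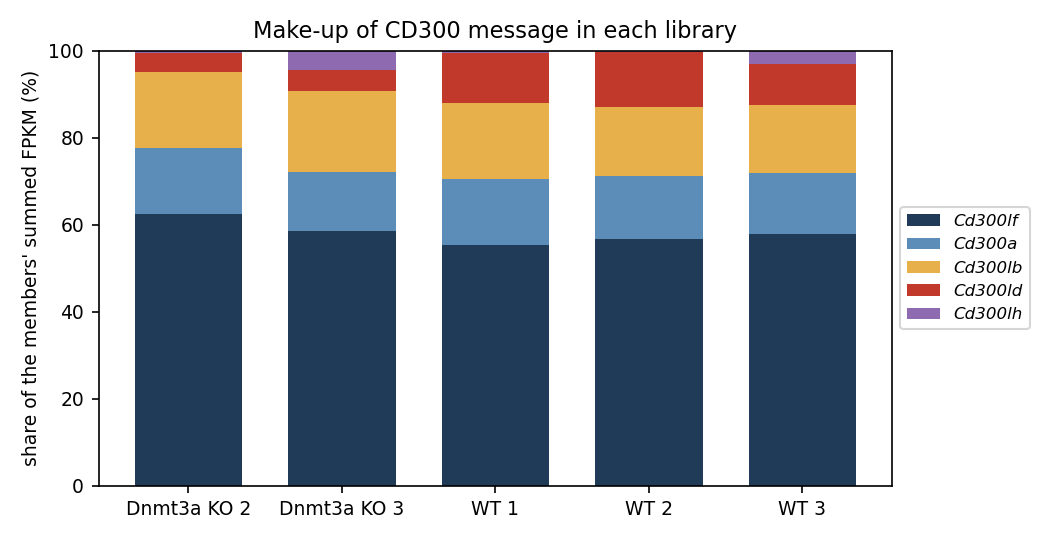
Share of each member in the summed FPKM of the 5 CD300 members (y axis, percent), 1 bar per library, with the 2 Dnmt3a KO libraries left of the 3 WT libraries. Cd300ld takes 4.46% and 4.79% in the KO bars and 9.40% to 12.8% in the WT bars, and Cd300lh is visible mainly in both replicate 3 bars.

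No tested gene beside the family was called lower along with Cd300ld and Cd300c2. Within 500 kb of either end of the members, 20 genes outside the family were tested. Of these, 8 were higher, 0 lower and 12 not past the threshold in KO cells. Among all genes tested, 9.08% were higher and 13% were lower, so few lower genes were to be expected among 20. The nearest tested gene on the Cd300a side was Ttyh2, a tweety-family gene, with 9.75 and 9.22 FPKM in the KO libraries and 5.05, 6.42 and 5.47 FPKM in the WT libraries. Its log2 change was 0.66 ± 0.11 (SE; limma adjusted p = 0.00641). On the Cd300lf side the nearest was Rab37, a small GTPase gene of secretion, with 91.0 and 114 FPKM in the KO libraries and 55.5, 54.7 and 56.3 FPKM in the WT libraries (log2 change 0.87 ± 0.10 SE; limma adjusted p = 0.00141). Rab37 thus rose while Cd300lf inside its intron did not pass the test. No source used here states whether the counting told the strands apart.

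The next 5 tested genes beyond Rab37 and Cd300lf were also higher in KO cells. Slc9a3r1, a scaffold gene of membrane proteins, was at 224 and 226 FPKM in the KO libraries and at 134 to 146 FPKM in the WT libraries. Grin2c, a glutamate receptor subunit gene, was at 19.0 and 22.6 FPKM in the KO libraries and at 3.35 to 4.58 FPKM in the WT libraries, a change of 2.11 ± 0.14 on the log2 scale (SE; limma adjusted p = 0.000243). Nat9 (log2 change 0.38), Tmem104 (0.47), Fdxr (0.64) and, farther on, Kctd2 (0.47) completed the 8. The other 12 tested neighbours, most of them beyond Fdxr, did not pass. Once sex was a covariate, Nat9, Tmem104, Fdxr and Kctd2 no longer passed (adjusted p of 0.238, 0.0517, 0.152 and 0.241 in that order). Nat9, Fdxr and Kctd2 also lost them when any of at least 3 single libraries was left out (adjusted p = 0.0529 to 0.115 where lost).

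**Figure D4:**
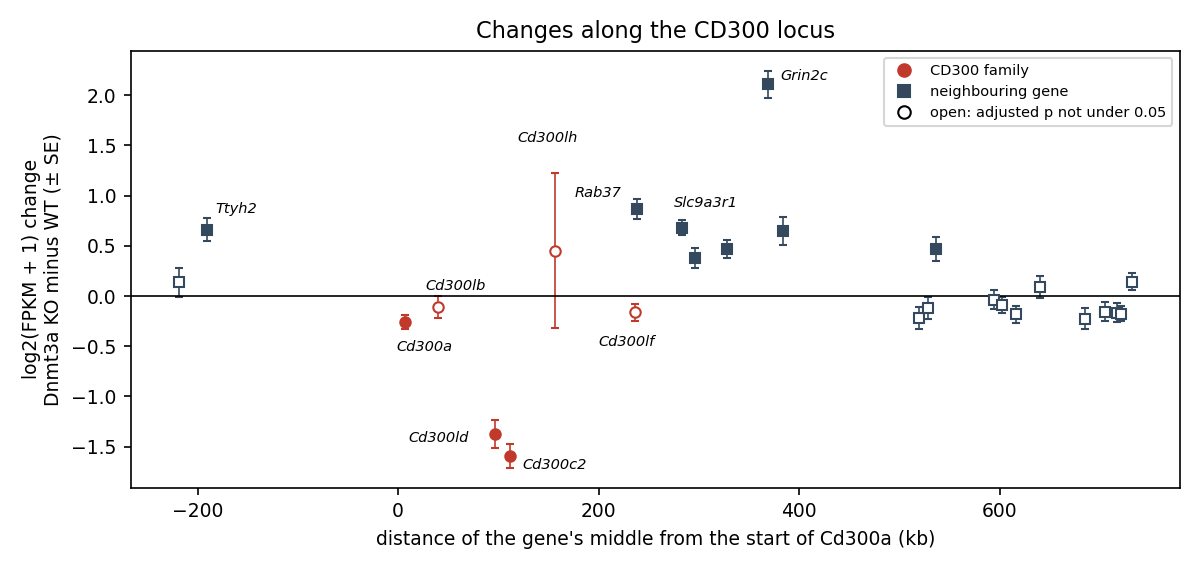
Change on the log2(FPKM + 1) scale (y axis, Dnmt3a KO minus WT, bars are SE) of each tested gene along the CD300 locus, by the distance of its middle from the start of Cd300a (x axis, kb). Red circles are CD300 genes, dark squares are neighbours, and open symbols did not pass the test. Cd300ld at -1.37 and Cd300c2 at -1.59 are the lowest points, and the neighbours from Rab37 to Fdxr lie above 0.

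Marker genes of cell types moved along with these changes. For comparison, 13% of all genes tested were lower and 9.08% were higher in KO cells. Of 15 monocyte and macrophage markers, all tested, 12 were lower and 1 was higher in KO cells, with a median log2 change of -1.56, against -0.044 over all genes. Their FPKM summed to 2912 and 2708 in the KO libraries and to 6465 to 8339 in the WT libraries. Of 15 tested neutrophil markers 11 were lower and 0 higher (sums of 17910 and 13760 FPKM in KO and 25560 to 35680 FPKM in WT cells). The 6 tested markers of dendritic cells and MHC class II were all lower (sums of 312 and 156 FPKM in KO and 1590 to 2171 FPKM in WT cells), and 5 more of that list were under 1 FPKM in every library. Among the 6, Ciita was at 0.57 and 0.29 FPKM in the KO libraries and at 3.38 to 3.94 FPKM in the WT libraries. It passed the filter only through the WT libraries, which fixed its direction. Of 13 mast cell markers 10 were higher and 0 lower (sums of 32750 and 28590 FPKM in KO and 12160 to 13950 FPKM in WT cells), and of 8 basophil markers 5 were higher and 0 lower. Fcer1a is on both of these lists and is counted as higher in each. The other 3 basophil markers, among them the protease genes Mcpt8 and Prss34, did not pass. Of 8 eosinophil markers 1 was higher and 0 lower. Of the erythroid markers 2 of 6 tested were lower, of the B cell markers 1 of 2 and of the T and NK cell markers 2 of 2, and none of these 3 lists had a higher gene. No marker was at 0 in every library. In bulk RNA, fewer cells of a type and less RNA per cell cannot be told apart.

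The CD300 genes were also set against the summed monocyte and macrophage markers of the same library. Per 1000 FPKM of that sum, Cd300ld stood at 1.76 and 2.39 FPKM in the KO libraries, against 1.96, 2.67 and 2.24 FPKM in the WT libraries. These ranges overlapped. Cd300c2 stood at 6.50 and 5.61 FPKM in the KO libraries, against 5.99, 8.38 and 7.84 FPKM in the WT libraries, and overlapped as well. Lyz2 and Ly6c2, singled out after their values were seen as the most abundant of the 15 markers, made up 86.3% to 86.6% of the sum in the KO libraries and 86.3% to 89.5% in the WT libraries. Without them Cd300ld stood at 13.1 and 17.4 FPKM per 1000 FPKM in the KO libraries, against 18.6, 19.5 and 16.8 FPKM in the WT libraries, which still overlapped. Cd300c2 then stood at 48.4 and 40.8 FPKM in the KO libraries, against 56.7, 61.3 and 58.6 FPKM in the WT libraries, and the groups no longer overlapped. Per 1000 FPKM of the neutrophil markers, Cd300ld stood at 0.285 and 0.470 FPKM in the KO libraries, against 0.459, 0.680 and 0.567 FPKM in the WT libraries, with an overlap. Cd300c2 stood at 1.06 and 1.10 FPKM in the KO libraries, against 1.40, 2.14 and 1.98 FPKM in the WT libraries, with none. Against all monocyte and macrophage markers, Cd300a stood at 6.05 and 6.66 FPKM in the KO libraries, against 2.62, 2.99 and 3.32 FPKM in the WT libraries, with no overlap. Cd300lf and Cd300lb also stood higher, with KO means of 26.9 and 8.1 FPKM and WT means of 11.8 and 3.4 FPKM. That marker sum was itself lower in the KO libraries, so a gene of little change stands higher against it. Per 1000 FPKM of the mast cell markers, Cd300a stood at 0.538 and 0.631 FPKM in KO cells, against 1.58, 1.75 and 1.54 FPKM in WT cells, and Cd300ld at 0.156 and 0.226 FPKM, against 1.18, 1.56 and 1.04 FPKM. The mast cell sum was higher in the KO libraries, so a gene of little change stands lower against it. These ratios thus reflect the marker sums as well as the CD300 genes. The part of cell composition in the changes of the members was not tested.

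The genes through which CD300 receptors signal changed in both directions. Of 23 adaptors, kinases and phosphatases on a list, all tested, 9 were higher, 6 were lower and 8 did not pass. Across all genes tested, 9.08% were higher and 13% were lower. The median log2 change of the list was -0.046, against -0.044 over all genes. The largest rises were those of phospholipase C gamma 1, Plcg1, with 36.4 and 41.8 FPKM in the KO libraries and 15.3 to 17.9 FPKM in the WT libraries (log2 change 1.18 ± 0.10 SE; limma adjusted p = 0.000447), and of the interleukin 4 receptor gene Il4ra (1.02 ± 0.11; 0.00104), whose product CD300lf is known to associate with. The largest fall was that of the Src-family kinase gene Fgr, with 11.7 and 11.1 FPKM in the KO libraries and 23.9 to 29.9 FPKM in the WT libraries (log2 change -1.16 ± 0.10 SE; limma adjusted p = 0.000570). The DAP12 gene Tyrobp, the most abundant gene of the list that did not pass, was at 1087 and 1098 FPKM in the KO libraries, against 1229 to 1270 FPKM in the WT libraries (log2 change -0.19 ± 0.08 SE; limma adjusted p = 0.155).

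The remaining partners named here were singled out after their values were seen, for their direct pairing with CD300 proteins. Fcer1g, the gamma chain with which CD300ld associates, was at 1228 and 896 FPKM in the KO libraries, against 965 to 1044 FPKM in the WT libraries. These groups overlapped, and the change on the log2 scale, 0.067 ± 0.138 (SE; limma adjusted p = 0.776), did not pass. Without KO replicate 2 it was -0.16 (adjusted p = 0.172). The DAP10 gene Hcst was at 93.3 and 80.4 FPKM in the KO libraries, against 59.6 to 72.7 FPKM in the WT libraries (log2 change 0.39 ± 0.11 SE; limma adjusted p = 0.0407). Hcst no longer passed with sex as a covariate (0.304), without KO replicate 2, WT replicate 2 or WT replicate 3 (0.106 to 0.135), without the filter (0.0579) or without the mean-variance trend (0.0670). Ptpn6, which encodes SHP-1, was at 101 and 118 FPKM in the KO libraries, against 143 to 162 FPKM in the WT libraries (log2 change -0.48 ± 0.09 SE; limma adjusted p = 0.0116).

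Other genes of phosphatidylserine recognition also divided. Of 16 tested, 3 were higher, 6 were lower and 7 did not pass, with a median log2 change of -0.25. Beside these stand 9.08% higher, 13% lower and a median of -0.044 over all genes. Mfge8, a bridging protein between phosphatidylserine and integrins, was at 90.8 and 89.9 FPKM in the KO libraries, against 47.6 to 67.0 FPKM in the WT libraries (log2 change 0.64 ± 0.14 SE; limma adjusted p = 0.0160), and the integrin gene Itgb3 also rose (0.51 ± 0.10; 0.0125). The integrin gene Itgb5 was at 6.09 and 6.37 FPKM in the KO libraries, against 18.7 to 21.4 FPKM in the WT libraries (-1.51 ± 0.09; 0.000236), and the receptor kinase gene Axl fell as well (-1.22 ± 0.22; 0.00791). Pros1, a bridging ligand of the Axl family, did not pass (-0.26; 0.258). Mfge8 no longer passed when either KO library was left out (adjusted p of 0.0578 without replicate 2 and 0.0698 without replicate 3), nor did Itgb3 (0.0635) and Axl (0.0602) when KO replicate 3 was.

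Other paired and tyrosine-motif receptors of myeloid cells changed in both directions. Of 39 tested, 19 were lower, 4 were higher and 16 did not pass, with a median log2 change of -0.32, beside 13% lower, 9.08% higher and a median of -0.044 over all genes. The 19 include Sirpb1a, at 0.69 and 0.33 FPKM in the KO libraries and 1.44 to 1.93 FPKM in the WT libraries. It passed the filter only through the WT libraries, which fixed its direction. The lectin receptor gene Clec4a1 was at 6.64 and 4.68 FPKM in the KO libraries, against 28.4 to 38.7 FPKM in the WT libraries (log2 change -2.30 ± 0.17 SE; limma adjusted p = 0.000359), and its relative Clec4b1 fell by 2.26 on the log2 scale (limma adjusted p = 0.000382). Cd200r3, an activating receptor gene of basophils and mast cells, was at 335 and 413 FPKM in the KO libraries, against 173 to 198 FPKM in the WT libraries (log2 change 1.01 ± 0.11 SE; limma adjusted p = 0.00103), and Pecam1 rose by 0.59 (limma adjusted p = 0.00360). The inhibitory receptor gene Lilrb4a, the most abundant that did not pass, was at 975 and 1170 FPKM in the KO libraries, against 817 to 962 FPKM in the WT libraries (0.26; 0.156), and passed without KO replicate 2 (0.40; 0.0426).

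**Figure D5:**
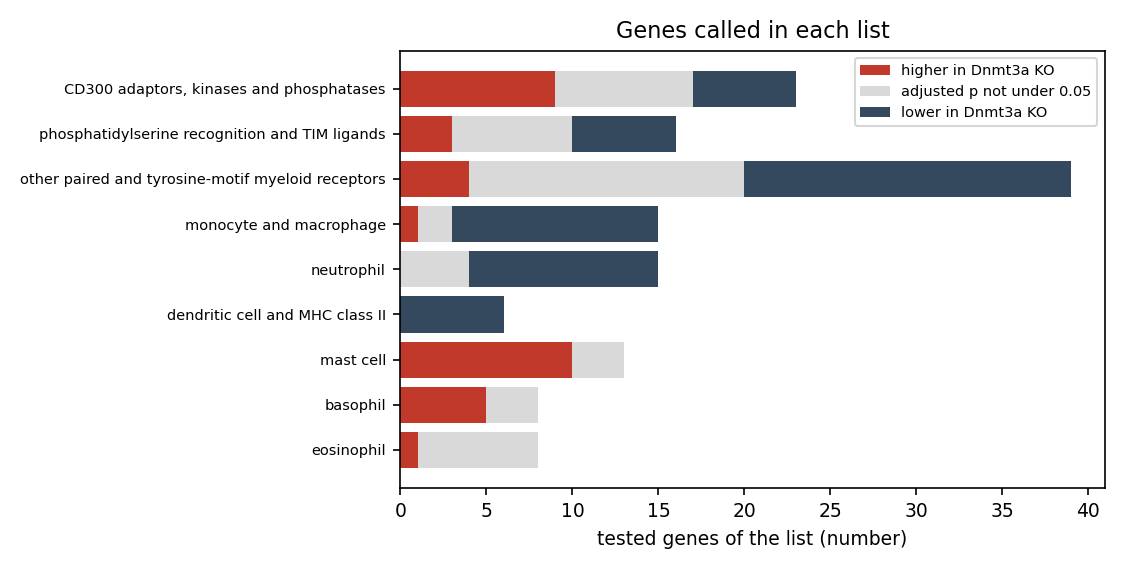
Number of tested genes (x axis) that were higher in Dnmt3a KO, not past the threshold, or lower in Dnmt3a KO in each list, by limma adjusted p under 0.05. The signalling list holds 9 higher and 6 lower genes, the list of other paired receptors 4 higher and 19 lower, and the monocyte and macrophage list 1 higher and 12 lower. Across all genes tested, 9.08% were higher and 13% were lower.

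Profiles over the 5 libraries were compared by the root mean square difference of centred log2(FPKM + 1) values, as a description. Nearest to Cd300ld were F13a1 (difference 0.0794), a coagulation factor gene expressed in monocytes and macrophages, and Dnajc15 (0.0907). F13a1 was at 15.5 and 17.1 FPKM in the KO libraries, against 40.0, 46.0 and 39.1 FPKM in the WT libraries. Close to Cd300a was Btbd1 (0.0117). Nearest to Cd300lf were Plpbp (0.0167) and Tmx4 (0.0168), and to Cd300lb were Wipi2 (0.0144) and Dis3 (0.0171). Nearest to Cd300lh were 2 unnamed gene models (0.249 and 0.304), both at 0 FPKM in the replicate 2 libraries of both genotypes and highest in the replicate 3 libraries.

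The authors' deposited table gives its own tests of these genes. For Cd300ld the authors' deposited table lists a signed fold of -2.87 with an adjusted p of 5.64e-17, and for Cd300c2 a signed fold of -3.13 with an adjusted p of 2.08e-09. For Cd300a, the authors' deposited table lists a signed fold of -1.21, an unadjusted p of 0.00103 from its first test and an adjusted p of 0.822 from its second. The other adjusted p values here are also from the second test, while the signed folds are a separate entry of the authors' deposited table. The remaining members, Cd300lb, Cd300lf and Cd300lh, have adjusted p values of 0.95, 1.0 and 0.976 from the second test of the authors' deposited table.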

How the data were processed

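Per the labels' protocols, mRNA was captured by oligo(dT), made into libraries with a SMARTER kit and run on an Illumina HiSeq. The tools HISAT, edgeR and StringTie 1.2.1 and the build mm10 are named, without role or order, in the submitters' processing notes. The authors deposited FPKM values per gene, rounded to 2 decimals, of which the 5 libraries named in the report were analysed, a signed fold (a score, KO over WT) and p-values of their own tests. A deposited log fold change and log level, unitless scores of unstated base, were not used. Of 15139 rows, 14639 carry a gene number, of which 14603 matched RefSeq GRCm38.p6. No row has a mean of 0 in either genotype, so genes silent in 1 genotype are not seen.

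The fit used limma 3.58.1 in R 4.3.3 on log2(FPKM + 1), with trended variances, genotype alone in the model and 3 residual degrees of freedom. Genes needed at least 1 FPKM in at least 2 libraries. The procedure was tested on simulated data. The alternatives were leaving out each library, a replicate block, sex as a covariate, a pseudocount of 0.1, no filter, 2 scalings and no trend.

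The members and gene lists were chosen with earlier results of these data known. Named are all members, the other family genes, the neighbours past the threshold and the nearest on each side. Of each pathway list, the 2 largest rises and falls and the most abundant gene not past the threshold are named. Some items that the rule picks are not reported here. The rule covered cell type markers too, which are given mainly as counts and sums.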

Additional observations from a re-analysis of the deposited data

How the results depend on the processing

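The falls of Cd300ld and Cd300c2 kept their direction and stayed under the threshold in all 12 alternatives. The number of members called, 2 as reported, was 1 (Cd300ld) with each library left out in turn (range 1 to 1), with the replicate block, with sex as a covariate, under median-of-ratios and upper-quartile scaling and without the mean-variance trend, because Cd300a no longer passed. It stayed at 2 with a pseudocount of 0.1 FPKM and without the filter. Over all genes, 2507 were called as reported, 1312 with sex as a covariate and 1623 to 2659 with 1 library left out, the lowest without WT replicate 2. With a single KO library left, that library is assumed to vary like the WT group. Signs turned for genes that did not pass: without KO replicate 2 for Cd300lb (log2 change over the left-out libraries -0.279 to 0.057), Wipi2 (-0.298 to 0.025), Dis3 (-0.25 to 0.048) and Fcer1g (-0.16 to 0.294), and without WT replicate 2 for Cd300lh (-0.005 to 1.546). Cd300lh did not pass the filter without KO replicate 3 or WT replicate 3. Of 502 values of 42 genes under the alternatives, 440 kept direction and call, 56 lost the call, 1 gained it and 5 changed sign; the cause was not tested. Set against monocyte and macrophage markers, the KO level was 0.905 times the WT level for Cd300ld and 0.818 times for Cd300c2, and 0.832 and 0.758 times with Lyz2 and Ly6c2 left out of the markers, a choice made after seeing the data. Replicate numbers 2 and 3 occur in both genotypes, but the labels do not say that they pair samples. Deviations from the group means correlated at -0.029 for replicate 2 and 0.099 for replicate 3 over genes, and at 0.109 for KO replicate 2 with WT replicate 1. The deviations of the 2 KO libraries are mirror images of each other, so these values cannot decide whether replicates pair. With the replicate block 2058 genes and 1 member passed, and Cd300a did not (adjusted p = 0.158). Replicate 1 was analysed in WT only, so the block fit rests on replicates 2 and 3, with 1 residual degree of freedom. Its log2 changes equal those without WT replicate 1, for example -0.247 for Cd300a, so these 2 alternatives are not independent. FPKM carry no counts, so counting error at low levels, as for Cd300lh and Cd300lg, could not be given.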
